A study of Chlorocebus sabaeus with 32 samples.

Results

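The nuclear genes of oxidative phosphorylation encode the subunits of respiratory complexes I to IV and of ATP synthase, complex V. A row of the count table was taken as a member where its symbol had the form of a complex I (NDUFA, NDUFB, NDUFC, NDUFS, NDUFV), complex II (SDHA to SDHD), complex III (UQCR), complex IV (COX4 to COX8) or complex V (ATP5) subunit followed only by an isoform letter or number. This found 77 of 33994 gene rows. They are 34 genes of complex I, 4 of complex II, 8 of complex III, 15 of complex IV and 16 of complex V. NDUFA4 matched the complex I form but is known as a complex IV subunit and was counted there. Of the 77 rows, 55 carried the symbol itself, and 22 were named only by a gene number and received their symbol from the RefSeq gene table of the assembly mChlSab1.0.hap1. All rows of complex III, and all of complex IV apart from NDUFA4, came through the gene number. Subunits encoded by the mitochondrial genome were not analysed here.

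The study sequenced ribosome-depleted total RNA in 32 hippocampal libraries of the vervet monkey (Chlorocebus sabaeus) to follow developmental change in the transcriptome. Every library is labelled as from an animal under 1 year old, and the labels give no genotype, treatment, finer age or sex. The titles open with 4 digits that take 3 values and form 3 blocks, called here block B (16 libraries, the middle value), block A (14 libraries, the lowest value) and block C (2 libraries, the highest value), and the labels do not state what the digits mean. Within block B, 9 libraries have a title number of 20000 or higher and 7 have a lower one, and the labels do not explain this number either.

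Complexes I and II pass electrons from NADH and succinate to ubiquinone, complex III passes them on to cytochrome c, and complex IV passes them to oxygen. Complexes I, III and IV pump protons across the inner mitochondrial membrane, and complex V uses the gradient to make ATP. Neurons depend heavily on this route, chiefly to restore ion gradients after synaptic activity. Complex II is built from nuclear genes alone, while the other complexes combine nuclear and mitochondrially encoded subunits.

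The depth was 9347635 to 19673621 gene counts. Of all reads counted, 51.3 to 67.1% lay in no gene feature. Both measures come from the same reads, since a read in no feature cannot add to the gene total, and across libraries they ran in opposite directions (Pearson r = -0.77, Spearman rho = -0.76, both permutation p = 1e-05, the smallest that 100000 permutations can give, n = 32). Without the 2 libraries farthest from the median total r was -0.74. Within block B r was -0.79 and rho -0.81 (permutation p = 0.0002 and 0.00024). Within block A, replicate 1 included, r was -0.92 and rho -0.78 (permutation p = 5e-05 and 0.00199). Because the measures share reads, these p-values do not test for a link beyond the counting itself. Replicate 1 of block A stood apart, with the lowest gene total and the highest percent in no feature, and it was the lowest library for 50 of the 73 member genes with a mean of at least 1 CPM. The hippocampal markers PROX1, WFS1, RGS14 and ZBTB20 summed to 317 to 840 CPM across libraries (counts relative to library size, after TMM scaling between libraries). The sum does not show that each of these genes was present in every library. In bulk tissue, fewer cells of a type and less RNA per cell cannot be told apart.

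The 77 genes took a small share of each library's gene counts. In block B the share ran from 0.548 to 0.727%, with a median of 0.659%, and in block A from 0.495 to 0.716%, with a median of 0.645%. The 2 libraries of block C had 0.694 and 0.739%. The lowest share was that of replicate 1 of block A.

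CPM are not divided by transcript length, and no transcript lengths were at hand, so the levels below describe each gene across libraries and do not rank genes against each other. Of the 77 genes, 73 had a mean of at least 1 CPM, with means from 2.20 to 773 CPM. Among complex I genes, NDUFS1, the large iron-sulfur subunit of the electron input arm, averaged 209 ± 27.9 CPM (SD, n = 32). In complex II, the flavoprotein SDHA had 90.1 ± 11.6 CPM and the iron-sulfur subunit SDHB 73.6 ± 10.01 CPM, and the membrane anchors SDHC and SDHD had 11.8 ± 1.62 and 7.45 ± 0.798 CPM (SD, n = 32 each).

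In complex III, the core proteins UQCRC2 and UQCRC1 averaged 243 ± 35.0 and 192 ± 21.99 CPM, and UQCRFS1, the Rieske iron-sulfur protein, 135 ± 18.1 CPM (SD, n = 32 each). In complex IV, NDUFA4 had 251 ± 37.5 CPM, COX6A1 161 ± 18.99 CPM and COX5B 141 ± 17.7 CPM. In complex V, ATP5B and ATP5A1, the beta and alpha subunits of the catalytic head, averaged 773 ± 111 and 611 ± 82.9 CPM, and ATP5C1, the central gamma subunit, ran from 83.1 to 158 CPM with a median of 128 CPM.

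Complex IV holds several subunits with tissue-specific isoforms. COX6A2 and COX7A1, the isoforms known from heart and skeletal muscle, had 0.438 ± 0.194 and 6.97 ± 0.977 CPM, and their counterparts of most other tissues, COX6A1 and COX7A2, 161 ± 18.99 and 129 ± 24.1 CPM (SD, n = 32 each). The isoforms known from testis had few counts. COX8C had 237 counts over all 32 libraries, with 0 libraries at 0 and a mean of 0.457 CPM, near that of COX6A2. COX6B2 had 43 counts with 12 libraries at 0, and COX7B2 had 10 counts with 25 libraries at 0. At 0 counts, a level of up to 3 counts is possible, equal to 0.152 to 0.321 CPM across libraries, a limit that covers counting error only. COX6B2 and COX7B2 did not pass the count filter and entered no test, so tests cover 75 members.

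COX7C and COX7B, which are not confined to one tissue, were at 2.20 ± 0.383 and 4.72 ± 1.03 CPM (SD, n = 32). Both are small subunits with processed copies elsewhere in primate genomes. Reads with several alignments were not assigned to genes and made up 8.90% ± 1.13 of reads counted (SD, n = 32), and their part in these low values was not tested. The proton-carrying c subunit of complex V is encoded by ATP5G1, ATP5G2 and ATP5G3, which give the same mature protein. They averaged 12.2 ± 2.63, 73.8 ± 9.08 and 85.3 ± 13.4 CPM (SD, n = 32 each).

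Variation between libraries was moderate and mostly shared. Over the 73 genes with at least 1 CPM, the highest library exceeded the lowest by 1.40-fold to 3.02-fold, with a median of 1.82-fold. Without replicate 1 of block A the ranges were 1.40-fold to 2.47-fold, with a median of 1.63-fold, and COX7B had the widest. Over all libraries ATP5G1 had the widest range, from 5.62 to 16.98 CPM with a median of 12.04 CPM, and its lowest value without that library was 7.72 CPM. The narrowest SD of log2 CPM among all members, 0.120, belonged to NDUFA6, a complex I accessory subunit at 21.5 ± 1.81 CPM. ATP5S, ATP5J and NDUFV3 were also steady: ATP5S, the coupling factor B protein, ran from 11.4 to 16.6 CPM.

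Summed by complex, the genes kept their proportions more closely than their levels. The sum of all 77 genes ran from 4484 to 7527 CPM, with a median of 6626 CPM, a range of 1.68-fold, or 1.44-fold without replicate 1 of block A. Single complexes ranged over 1.54-fold for complex IV to 1.90-fold for complex V, and without that library complex V ranged over 1.53-fold. The sum of complex III divided by that of complex I stayed between 0.333 and 0.379, a range of 1.14-fold, and that of complex II divided by complex I between 0.0753 and 0.0862, a range of 1.15-fold. The ratio of complex IV to complex I ran from 0.417 to 0.581, where the highest value belonged to replicate 1 of block A and the next was 0.525.

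**Figure D1:**
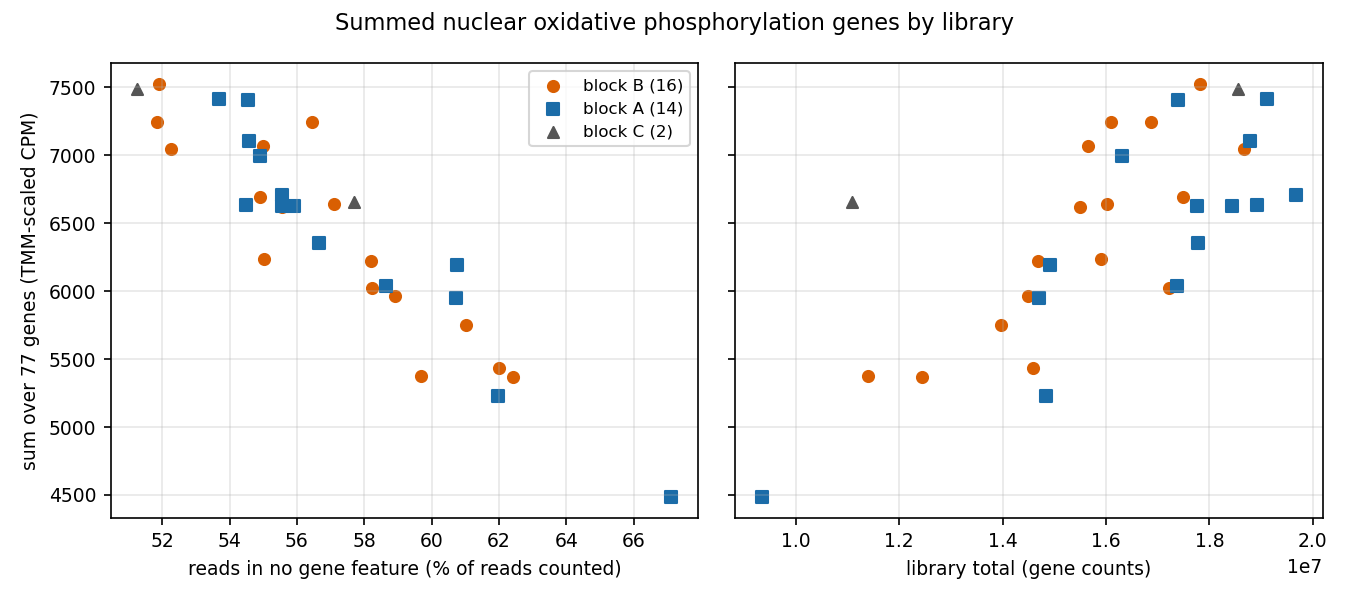
Sum of TMM-scaled CPM over the 77 genes (vertical axis) in each of 32 libraries, plotted against the percent of reads in no gene feature (left) and against the library total in gene counts (right). Each point is 1 library, marked by title block. The sums run from 4484 to 7527 CPM, and the lowest belongs to the library with 67.1% of reads in no feature and 9347635 gene counts.

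The members were lower in libraries with more reads in no gene feature. Each gene was fitted by edgeR's quasi-likelihood test on the percent of reads in no feature over all 32 libraries, and slopes are log2 changes per 10 percentage points ± standard error. Of all 23213 genes tested, 40.7% were called at an adjusted p (Benjamini-Hochberg) under 0.05, 20% (4639) lower and 20.7% (4804) higher. Of the 75 members tested, 67 were called lower and 0 higher, a share above that background. Their median slope was -0.45, against 0.03 over all genes. With library totals alone in place of TMM, the medians were -0.36 and 0.12, with 63 members lower and 1 higher, and the split of all calls was 6555 higher and 3071 lower.

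By complex, the calls were 33 of 34 genes in complex I, 3 of 4 in complex II, 8 of 8 in complex III, 9 of 13 in complex IV and 14 of 16 in complex V. UQCR10, a small subunit of complex III, ran from 24.5 to 63.0 CPM with a median of 50.9 CPM, and its slope was -0.72 ± 0.07 (adjusted p = 2.92e-09). NDUFB6, an accessory subunit of the membrane arm of complex I, ran from 24.4 to 63.5 CPM with a median of 49.6 CPM and had a slope of -0.70 ± 0.06 (adjusted p = 9.65e-10). In both genes the lowest library was replicate 1 of block A, and without it the slopes were -0.63 ± 0.07 and -0.61 ± 0.07 (adjusted p = 2.58e-07 and 6.94e-08). COX7B had a slope of -0.71 ± 0.12 and ATP5G1 of -0.64 ± 0.12 (adjusted p = 2.42e-05 and 7.53e-05).

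UQCRFS1 had the smallest adjusted p of the members, 2.24e-10, at a slope of -0.53 ± 0.04. The catalytic subunit ATP5B fell by 0.55 ± 0.06 and NDUFS1 by 0.45 ± 0.07 per 10 percentage points (adjusted p = 3.17e-08 and 3.69e-06). The genes not called were NDUFB9, SDHD, COX6A2, COX7A1, COX7C, COX8C, ATP5D and ATP5S, with slopes between -0.24 and 0.35. NDUFB9, at -0.17, was called without replicate 1 of block A, at -0.37 ± 0.11 (adjusted p = 0.0069). Positive slopes in this group were those of COX6A2 at 0.35 ± 0.31, COX7A1 at 0.18 ± 0.09 and ATP5S at 0.03 ± 0.07.

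The relation was present within both blocks that could be fitted, while block C has 2 libraries and was not fitted alone. Within block B alone, 57 of 73 members tested were called, all lower, with a median of -0.42, where 15.9% of all genes were called in either direction. Within block A alone, replicate 1 included, 63 were called lower and 1, COX7A1, higher, with a median of -0.50, against 33.1% of all genes. Block A was not fitted alone without that library. Over all other libraries, COX7A1 had a slope of 0.09 ± 0.11 (adjusted p = 0.587). Without replicate 1 of block A, 65 members were lower, with a median of -0.43, and 30.7% of all genes were called. With log2 library total as a covariate, 62 members were called lower, with a median of -0.43, and 26.1% of all genes were called.

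Members were also higher in libraries with more gene counts. Slopes per doubling of the library total were fitted over all 32 libraries in the same way. Of 23508 genes tested, 31.3% were called, 15.7% higher and 15.6% lower. Among the 75 members, 61 were called higher and 1 lower, with a median slope of 0.51 against -0.07 over all genes. Library totals alone gave 48 higher and 1 lower and medians of 0.35 and -0.22, with 2081 genes higher and 6091 lower in all, against 3700 and 3657 under TMM.

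All 8 genes of complex III were called higher, as were 29 of 34 in complex I, 3 of 4 in complex II, 7 of 13 in complex IV and 14 of 16 in complex V. NDUFB10, an accessory subunit of the membrane arm of complex I, ran from 35.9 to 77.2 CPM with a median of 63.5 CPM and rose by 0.86 ± 0.10 per doubling (adjusted p = 1.02e-06). Without replicate 1 of block A its lowest value was 48.6 CPM and its slope 0.79 ± 0.12 (adjusted p = 0.000258). ATP5G3 had a slope of 0.78 ± 0.12, ATP5B of 0.72 ± 0.11 and SDHA of 0.62 ± 0.10 (adjusted p = 1.32e-05, 1.06e-05 and 1.69e-05). NDUFA4 was not called, with a slope of 0.04 ± 0.15 (adjusted p = 0.869), or 0.18 ± 0.18 without replicate 1 of block A (adjusted p = 0.526). COX6A2, COX6C, COX7C and COX8C of complex IV were not called either.

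Of the 3 members with a negative slope on the total, COX7A1, COX6A2 and ATP5S, COX7A1 was the one called. It ran from 5.56 to 9.69 CPM with a median of 6.75 CPM, and its slope on the library total was -0.41 ± 0.13 (adjusted p = 0.0154). Without replicate 1 of block A the slope was -0.30 ± 0.16 and was no longer called (adjusted p = 0.185). Its counterpart COX7A2 had a slope of 0.50 ± 0.18 (adjusted p = 0.0325), which was also lost without that library, at 0.39 ± 0.21 (adjusted p = 0.21). The level of COX7A1 divided by that of COX7A2 ran from 0.0386 to 0.0816 in block B and from 0.0392 to 0.114 in block A, or to 0.0930 without replicate 1, without division by length.

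**Figure D2:**
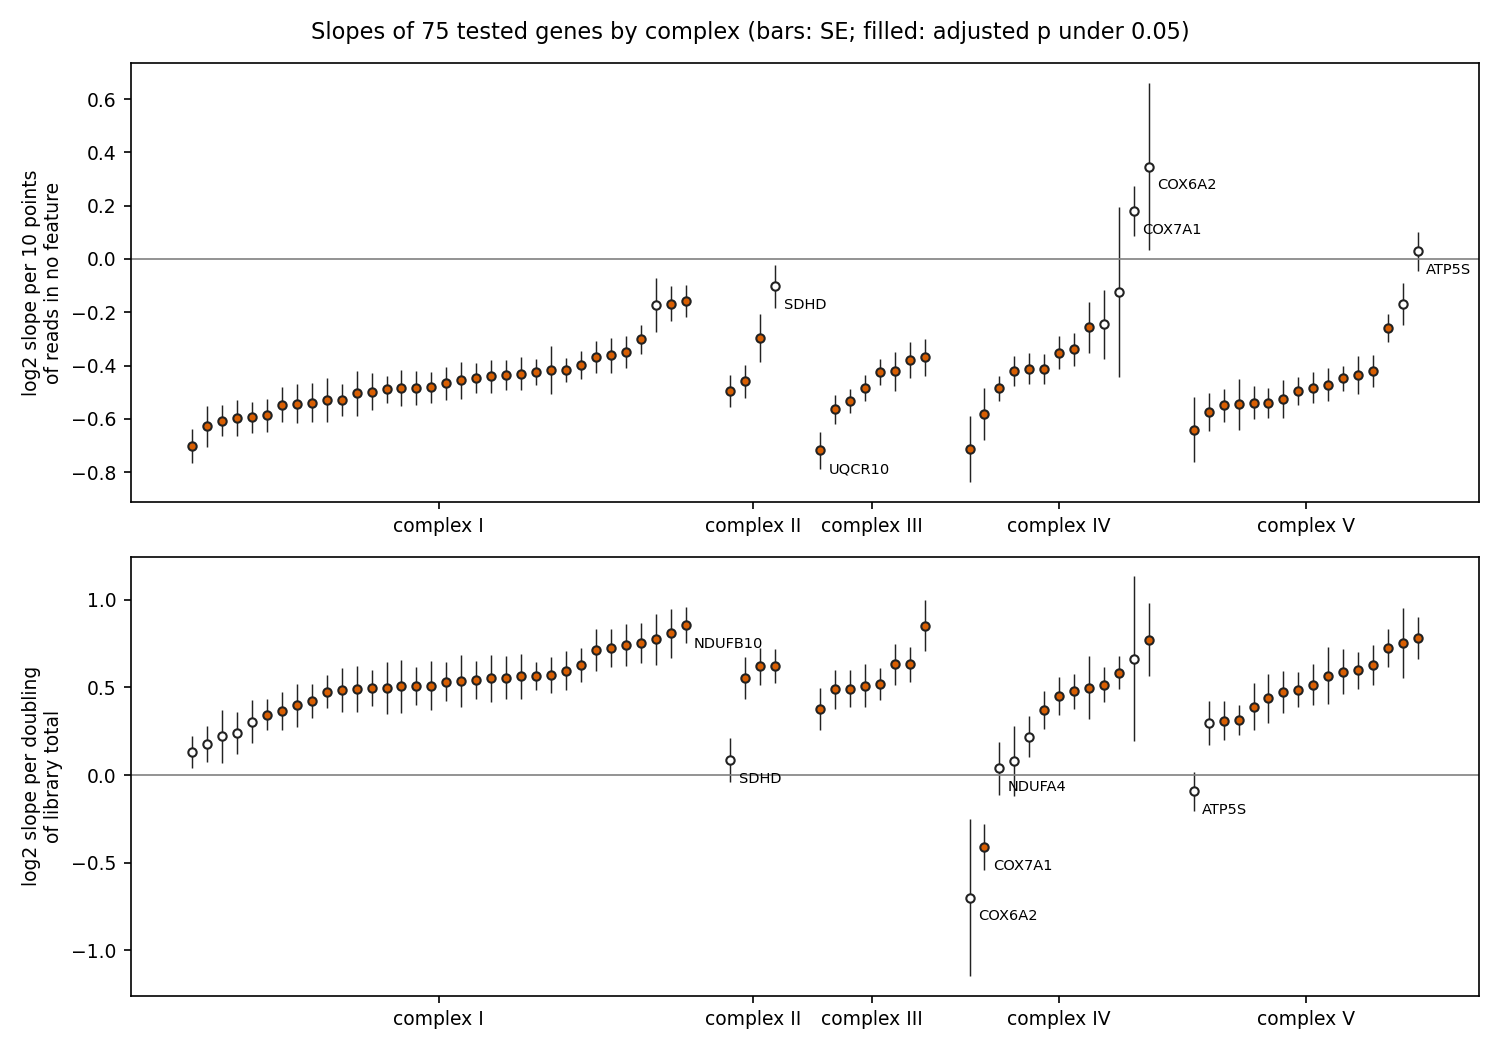
Log2 slope of each of the 75 tested genes on the percent of reads in no feature, per 10 percentage points (top), and on the library total, per doubling (bottom), grouped by complex and ordered by slope within it. Bars are standard errors and filled points have an adjusted p under 0.05. Of 75 genes, 67 are called lower in the top panel, and 61 are called higher and COX7A1 lower in the bottom panel.

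The 2 measures were then entered together. Given the percent in no feature, the library total left 3 members called, NDUFB10 higher at 0.48 ± 0.13 and NDUFA4 and ATP5E lower at -0.61 ± 0.19 and -0.37 ± 0.11 (adjusted p = 0.0153, 0.0402 and 0.0359), and the median slope was 0.06. In that fit 9.08% of all genes were called on the total, and 27 of the 72 members with a positive slope on the total alone had a negative one. Given the total, the percent in no feature called 62 members. Between the single fits, 60 genes were shared by the 61 called higher with the total and the 67 called lower with the percent in no feature. Without replicate 1 of block A, the library with the fewest counts, the total alone called 44 members, all higher, with a median of 0.44, and 15.9% of all genes. Within block B the total called 24 members at a median of 0.62 and 4.69% of all genes. Within block A, replicate 1 included, it called 60 higher and 1 lower at a median of 0.65 and 32.5% of all genes.

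Other lists of mitochondrial and metabolic genes were fitted in the same tests, where 20% of all genes were lower with more reads in no feature. Of 13 genes of the tricarboxylic acid cycle, which feeds NADH and succinate to the chain, 11 were lower with more reads in no feature and 0 higher, at a median of -0.36. Mitochondrial ribosomal proteins, which translate the mitochondrially encoded subunits, had 66 of 74 lower and a median of -0.41. Glycolytic genes had 14 of 17 lower and a median of -0.42, and cytosolic ribosomal proteins 46 of 73 lower and a median of -0.28. On the library total, 12 of 13, 52 of 74, 12 of 17 and 7 of 73 genes of these lists were higher, against 15.7% of all genes. The cytosolic ribosomal proteins, at 7 of 73 and a median slope of 0.09, were below that share.

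Subunits and electron carriers whose symbols fall outside the symbol forms were tested as well. Of 8 such genes, 7 were lower with more reads in no feature, among them CYC1, the cytochrome of complex III, at -0.59 ± 0.05, cytochrome c itself, CYCS, at -0.56 ± 0.07, and COX4I1 at -0.32 ± 0.06. NDUFA4L2, a paralog of NDUFA4, was the one not called, at -0.11 ± 0.26. Of the assembly factors, 10 of 15 for complex I, 14 of 21 for complex IV and 8 of 11 for complexes II, III and V were lower, with medians of -0.28, -0.31 and -0.37.

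Genes of mitochondrial biogenesis went both ways on the percent in no feature, with 9 of 16 lower and 3 higher. TFAM, which packages and transcribes mitochondrial DNA, had a slope of -0.42 ± 0.09, and TFB2M, a transcription factor of mitochondrial DNA, of -0.54 ± 0.08. The 3 that were higher were NRF1 and ESRRG, transcription factors of respiratory genes, at 0.56 ± 0.06 and 0.58 ± 0.10, and the coactivator PPARGC1A, at 0.25 ± 0.08. Mature neuron markers had 3 of 8 lower and 1 higher, and their summed level ran from 4336 to 7050 CPM in block B and from 4027 to 8655 CPM in block A. Over all genes, 20.7% were higher and 20% lower with more reads in no feature. Of glial markers, 1 of 6 for astrocytes and 2 of 4 for microglia were higher, 0 of each list were lower, and 0 of 6 for oligodendrocytes were called. Inhibitory neuron, endothelial, mural and fibroblast, and striatal and thalamic lists had 1 higher of 6, 4, 5 and 4 genes, and 0 lower. Choroid plexus markers had 1 of 2 higher. Immature neuron markers had 1 of 6 lower and 0 higher, and 0 of 4 hippocampal markers were called. On the library total, 15.7% of all genes were higher and 15.6% lower. Of mature neuron markers, 7 of 8 were higher on it and 0 lower, with a median slope of 0.83. Hippocampal and endothelial markers had 1 of 4 lower each, mural and fibroblast markers 2 of 5 and oligodendrocyte precursor markers 1 of 3, with 0 higher. There 3 of 6 astrocyte markers and 2 of 4 striatal and thalamic markers were lower and 0 of either list higher, and 0 of 4 for microglia, 0 of 6 for oligodendrocytes and 0 of 6 for immature neurons were called. The part of RNA quality or cell makeup in these slopes was not tested.

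Between title blocks, few members were called. The difference of block B from block A was fitted by edgeR's quasi-likelihood method, the block C libraries included. Of 23977 genes tested, 12.5% were called, 7.12% higher and 5.36% lower in block B. Of the 75 members tested, 0 were called higher and 2 lower, both in complex I, a share below that background. The median difference of the members was -0.02 on the log2 scale, against 0.01 over all genes, and the differences ran from -0.28 to 0.15.

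NDUFB8, an accessory subunit of the membrane arm whose protein is often used to follow complex I assembly, ran from 108 to 161 CPM with a median of 127 CPM in block B and from 127 to 192 CPM with a median of 163 CPM in block A. The ranges overlapped, but 0 of 16 libraries of block B lay above the median of block A. The difference was -0.25 ± 0.07 (adjusted p = 0.0236). NDUFB9, another accessory subunit of the same arm, ran from 43.8 to 78.2 CPM with a median of 57.2 CPM in block B and from 60.4 to 82.9 CPM with a median of 72.6 CPM in block A. Here 3 of 16 libraries of block B, the highest at 78.2 CPM, lay above the median of block A, and the difference was -0.25 ± 0.07 (adjusted p = 0.0178).

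Both genes stayed called in each of 30 fits that left out 1 library, with adjusted p from 0.0102 to 0.0481 for NDUFB8 and from 0.00573 to 0.0286 for NDUFB9. Among libraries with title numbers below 20000, 7 of block B and 14 of block A, the differences were larger, at -0.41 ± 0.08 for NDUFB8 and -0.38 ± 0.07 for NDUFB9 (adjusted p = 0.00731 and 0.00578). Summed complex I genes were also lower in those 7 libraries, with a median of 2027 CPM against 2343 CPM in block A. In the 9 other libraries of block B the complex I median was 2428 CPM. There NDUFB8 and NDUFB9 had medians of 156 and 62.2 CPM, closer to the 163 and 72.6 CPM of block A. How strand was treated in counting is unknown from the sources used here, and reads shared with an overlapping gene were not checked.

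**Figure D3:**
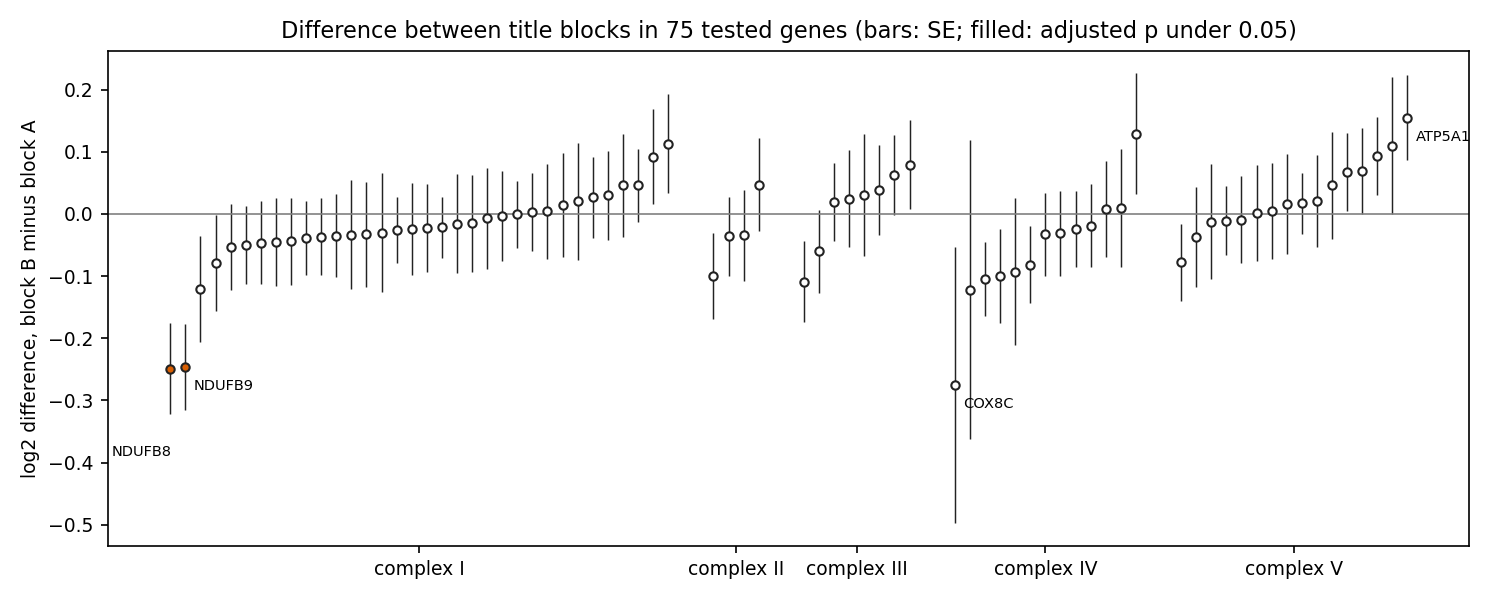
Log2 difference of block B minus block A for each of the 75 tested genes, grouped by complex and ordered within it. Bars are standard errors and filled points have an adjusted p under 0.05. The filled points are NDUFB8 and NDUFB9, at -0.25 each, and the differences run from -0.28 to 0.15.

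In complex V, 11 of 16 differences were positive, and none was called. ATP5A1 ran from 498 to 752 CPM with a median of 646 CPM in block B and from 394 to 666 CPM with a median of 564 CPM in block A, a difference of 0.15 ± 0.07 (adjusted p = 0.13). It was called under 3 alternatives, at 0.19 ± 0.06 with library totals alone (adjusted p = 0.0319), 0.21 ± 0.05 with log2 library total as a covariate (adjusted p = 0.00541) and 0.13 ± 0.05 with the percent in no feature as a covariate (adjusted p = 0.0364). With the library total as a covariate, 19.1% of all genes and 11 of 75 members were called, a member share below that background. Of the 11, 9 were higher: ATP5A1, ATP5C1, ATP5G1, ATP5G2, ATP5G3, UQCRFS1, NDUFA11, NDUFC2 and NDUFS8. With the percent in no feature, 18.5% of all genes and 7 of 75 members were called, again a member share below the background. These were ATP5A1, higher, and UQCRB, COX6A1, NDUFB10, NDUFB8, NDUFB9 and SDHA, lower.

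**Figure D4:**
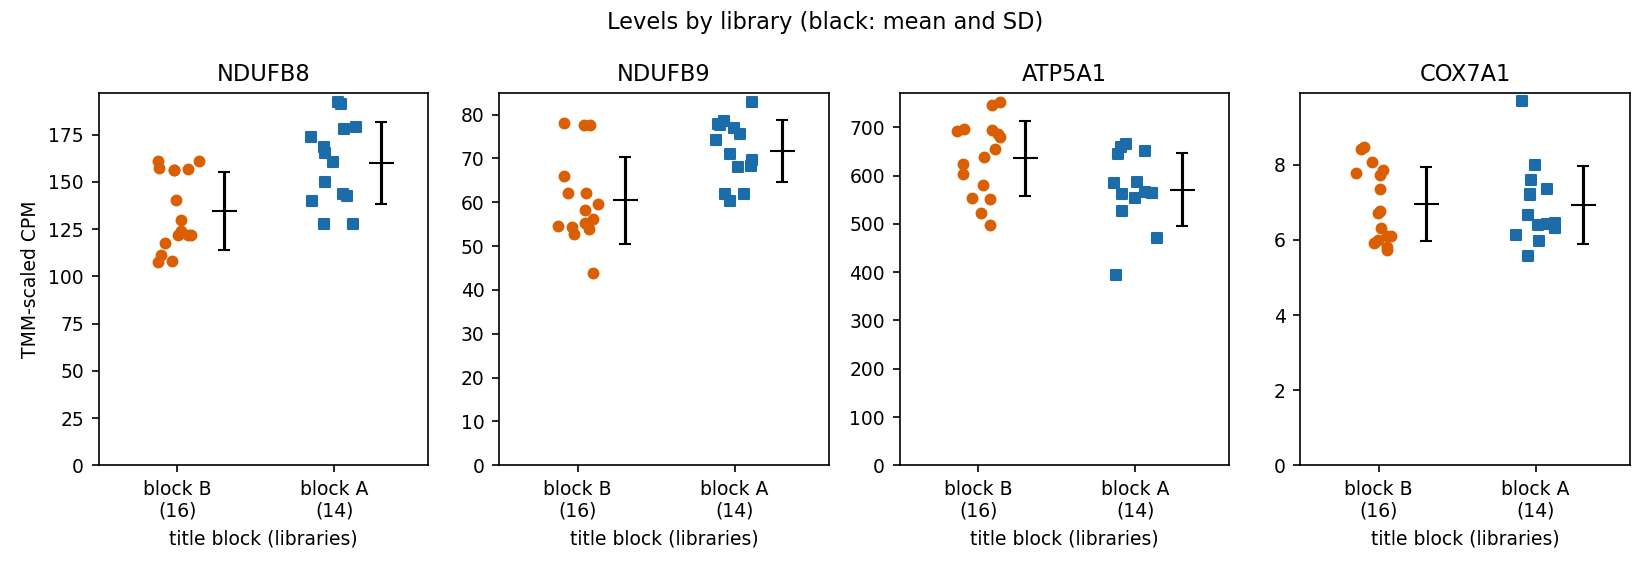
TMM-scaled CPM of NDUFB8, NDUFB9, ATP5A1 and COX7A1 in the 16 libraries of block B and the 14 of block A. Each point is 1 library, and the black mark and bar are the mean and SD. No NDUFB8 value of block B lies above 161 CPM, while block A reaches 192 CPM.

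The proportions of the complexes were compared as sums. The sum of complex V divided by that of complex I ran from 0.909 to 1.06 with a median of 0.997 in block B and from 0.891 to 1.01 with a median of 0.927 in block A. Of 16 libraries of block B, 15 lay above the median of block A and 7 above its highest library, so the groups overlapped in part. The 2 libraries of block C had 0.990 and 1.01. Without ATP5A1 and ATP5B the ratio ran from 0.346 to 0.376 in block B and from 0.333 to 0.369 in block A, with medians of 0.358 and 0.339.

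Complex III relative to complex I averaged 0.364 ± 0.00921 in block B (SD, n = 16) and 0.351 ± 0.00878 in block A (SD, n = 14), and 13 of 16 libraries of block B lay above the median of block A. Complex II relative to complex I averaged 0.0813 ± 0.00232 in block B and 0.0825 ± 0.00282 in block A, and complex IV 0.463 ± 0.0269 in block B and 0.471 ± 0.0360 in block A, differences smaller than the SD. These ratios were chosen after their values had been seen and are given without a test.

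**Figure D5:**
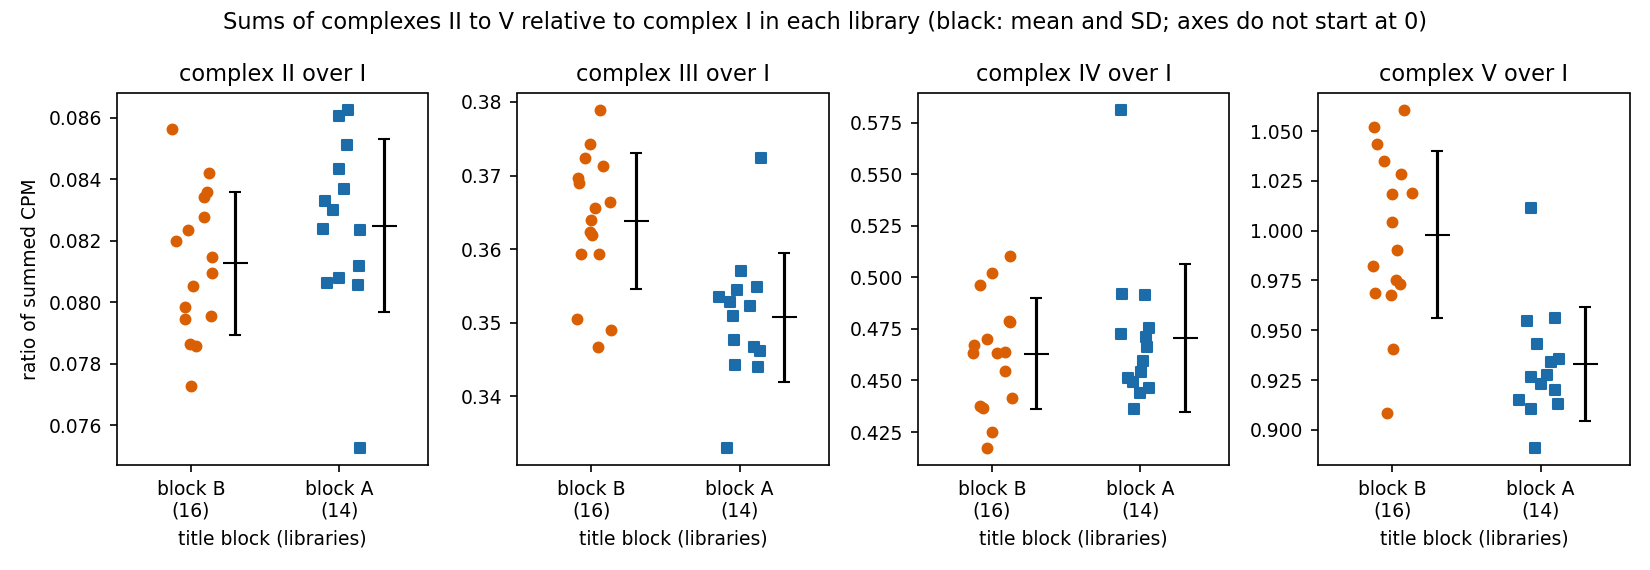
Summed CPM of complexes II, III, IV and V divided by that of complex I in each library of block B (16) and block A (14). Each point is 1 library, the black mark and bar are the mean and SD, and the vertical axes do not start at 0. For complex V, 15 of 16 libraries of block B lie above the block A median of 0.927.

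Other gene lists were compared between the same blocks, where 12.5% of all genes were called. All 6 markers of immature neurons were higher in block B, with a median difference of 0.73, and 5 of 8 mature neuron markers were lower, with a median of -0.34. Summed, the immature markers ran from 1106 to 2965 CPM in block B and from 768 to 2089 CPM in block A. The metabolic lists had few calls. Of 17 glycolytic genes 2 were lower, a share near that of all genes, ALDOA by 0.37 ± 0.10 and PFKP by 0.30 ± 0.08 on the log2 scale. In the tricarboxylic acid cycle 0 of 13 genes were called, and 0 of 74 mitochondrial ribosomal proteins. Among assembly factors, 0 of 15 for complex I were called. Of 21 for complex IV, 1 was called, the copper chaperone COX17, lower at -0.32 ± 0.09 (adjusted p = 0.0202). Of 11 for complexes II, III and V, 1 was lower and 1 higher. These were ATPAF1, of complex V, at -0.21 ± 0.04, and SDHAF1, of complex II, at 0.26 ± 0.07 (adjusted p = 0.0014 and 0.0153). The part of cell makeup in the differences of NDUFB8 and NDUFB9 was not tested.

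Within block B, members were compared between the 9 libraries with high title numbers and the 7 with low ones. Of 21488 genes tested, 0% were called by edgeR's quasi-likelihood test, with 3023 at an unadjusted p under 0.05, and DESeq2 called 198. Of 73 members tested, 0 were called. The members nevertheless lay mostly on one side, with 70 positive and 3 negative differences, 47 at an unadjusted p under 0.05, all higher with high numbers, and a median of 0.20 against 0.00044 over all genes. DESeq2 called 4 of them, COX6A1 at 0.23 ± 0.06, NDUFA12 at 0.31 ± 0.08, NDUFA4 at 0.31 and NDUFS6 at 0.32, all higher. The shift was not particular to the members. Cytosolic ribosomal proteins had 70 positive and 3 negative differences (median 0.16), and mitochondrial ribosomal proteins 71 and 3 (median 0.15). Glycolytic genes had 16 and 1 (median 0.20), and tricarboxylic acid cycle genes 11 and 2 (median 0.16). Genes that vary together do not give independent signs.

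The summed members ran from 5964 to 7527 CPM with a median of 7048 CPM in the 9 libraries with high numbers and from 5365 to 6696 CPM with a median of 5752 CPM in the 7 with low numbers. The percent of reads in no feature ran from 51.8 to 58.9% with a median of 55.0% in the 9 libraries with high numbers and from 54.9 to 62.4% with a median of 59.7% in the 7 with low numbers. With the percent in no feature as a covariate the median difference of the members was 0.05, with 5 at an unadjusted p under 0.05, and with log2 library total it was 0.12, with 15. One library with a high number held 414 CPM of choroid plexus markers, and 1 with a low number 395 CPM of striatal and thalamic markers, where medians over all libraries were 20.98 and 83.1 CPM. No fit that left out 1 library called a member.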

How the data were processed

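RNA was measured in 32 hippocampal libraries. The deposited table holds raw counts of reads per gene for each library, and STAR and HTSeq were used, per the submitters' processing notes. Versions, build, annotation and strand setting are unknown from the sources used here. Of 33999 rows, 5 tally reads assigned to no single gene, and these entered neither library sizes nor tests. Nothing says that the libraries came from separate animals beyond their titles, so p-values measure the spread between these libraries.

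The members and lists were chosen with earlier results of these data known. Of 17250 rows named by a gene number, 825 were named through the RefSeq gene table. Counts were scaled by TMM, filtered by filterByExpr (minimum count 10, total 15, proportion 0.7) and tested for all genes by edgeR 4.0.16 (R 4.3.3) with a quasi-likelihood fit and Benjamini-Hochberg adjustment at 0.05. The SD of log2 CPM uses a prior count of 2. Alternatives used other scalings, filters, limma 3.58.1, DESeq2 1.42.0, covariates and subsets of libraries. Taking members by row name alone was added after the data had been seen. Named genes were the 3 highest members per complex, all called between blocks, the 8 smallest p per slope, the 6 widest and 4 narrowest spreads, the low members and the isoform pairs, and genes outside this rule were named after their values had been seen. The tests were checked on simulated counts with known changes. Of log2 changes of 0.25, 13.2% were recovered between blocks and 5.88% between number sets, and of those of 0.5, 75.8 and 43.9%. On the library total the shares were 4.41 and 24.2%, and on the percent in no feature 8.82 and 47%. False calls made up 1.63 to 7.77% of calls. The 200 changed genes were drawn from all genes with a mean of at least 1 CPM, not from the members. Each gene was simulated independently, with a spread estimated without the comparison. These rates are therefore not rates for the members, which vary together. A member not called may still differ by small amounts.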

Additional observations from a re-analysis of the deposited data

How the results depend on the processing

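Over all named members and alternatives, direction and call were kept by 1530 of 1676 values between blocks, 1720 of 1802 on the library total, 1728 of 1798 on the percent in no feature and 957 of 975 between number sets. With the same sign, 0, 62, 54 and 0 lost their call and 12, 3, 8 and 2 gained one, while 134, 9, 8 and 16 changed sign without a call in either fit. Between blocks, the count of members called was 2 in each fit that left out 1 library, and moved to 11 with log2 library total and to 7 with the percent of reads in no feature as a covariate. The slope on the library total called 62 members, 24 within block B and 3 with the percent in no feature as a covariate, and 44 to 65 when 1 library was left out. In that covariate fit the slope on the total turned negative for 27 members, 19 of them called before. Of the members named by the rule that turned negative, NDUFA4 (-0.61) gained a call, and those that lost one were NDUFA5 (-0.071), COX6A1 (-0.024), ATP5A1 (-0.18), ATP5C1 (-0.13), COX7A2 (-0.27), COX8A (-0.027) and ATP5G2 (-0.0090). ATP5E, also negative there, was called. The slope on the percent in no feature called 64 to 68 members without 1 library. Between high and low title numbers, 0 members were called without any 1 library and 4 by DESeq2. The causes of these moves were not tested. Over all genes, calls between blocks numbered 2991, 1162 with low title numbers alone and 4588 with the total as a covariate. On the total they numbered 7357, 1066 within block B, 4772 without the 2 farthest libraries, 2135 with the percent in no feature as a covariate and 3686 without replicate 1 of block A, and on the percent in no feature 9443, 3487 within block B, 5978 without the 2 farthest libraries and 6142 with the total as a covariate. Between number sets they numbered 0, 198 by DESeq2 and 0 to 21 without 1 library, the most without replicate 12 of block B. Taking members by row name alone gave 2, 46, 51 and 0 calls among 55 members in the 4 comparisons. No paired analysis was possible because the labels give no replicate numbers shared between groups.

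Depth limits the 4 members under 1 CPM.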
